A study of Mus musculus with 6 samples.

Results

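Ccl7, Ccl9 and Cxcr4 are 3 chemokine genes, 2 ligands and 1 receptor, followed here in Bv2 cells after oxygen and glucose deprivation with reperfusion (OGD/R). They were taken by name from a deposited table of 1228 genes, in which each name occurs once, and were chosen with results of these data already known. Expression was measured by RNA sequencing in 3 OGD/R libraries and 3 control libraries of Bv2, an immortalised mouse microglial line, here of the genotype labelled WT. The OGD/R cells had 30 min in nitrogen and then 2 h without glucose and serum at 1% oxygen, followed by 24 h in standard medium with serum. The same protocol text mentions an infection 72 h before the treatment without saying which samples it applies to, and it does not describe the handling of control cells, so infection and OGD/R cannot be told apart if only one group was infected. The labels do not say whether the replicates were separate cultures; the p-values thus cover the spread between these libraries, which may be technical.

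Chemokines are small secreted proteins that guide the movement of leukocytes by binding receptors coupled to inhibitory G proteins. Ccl7, also called MCP-3, is one of the monocyte chemoattractant proteins and acts mainly through the receptor Ccr2. Ccl9, also called MIP-1 gamma, is a rodent chemokine that acts through Ccr1. Cxcr4 is the receptor of Cxcl12 and is known for holding blood-forming cells in the bone marrow and for steering migrating cells in the developing brain. Microglia and macrophages both make chemokines and carry their receptors.

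The table holds genes that had been picked for a difference between these same libraries. Genes higher in OGD/R had log2 ratios of their group means from 1.03 upward, and lower genes from -0.97 downward. All values are FPKM, fragments scaled to gene length and to library size. Levels of different genes are set side by side on this scale and depend on the length assigned to each gene. Of 852 genes with a mean of at least 1 FPKM, 829 passed an adjusted p of 0.05 in limma, which is 97.3%. Rises made up 397 of them (46.6% of tested genes) and falls 432 (50.7%). The groups did not overlap in 94.9% of the 1228 genes, with OGD/R higher in 48.4% and lower in 46.5%. A call, or a clean separation of the groups, is therefore the rule in this table and says nothing particular about the 3 genes, whose levels, sizes of change and spread are described below. Steps between low FPKM values gave 8030000, 8467000 and 8665000 counted units for OGD/R libraries 1 to 3 and 7666000, 8247000 and 7627000 units for control libraries 1 to 3. With these sizes the values of the 3 genes turn back into whole counts, and exact Poisson intervals on those counts cover counting error only.

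Only 2 of 20 listed microglia and macrophage markers are in the table, Cx3cr1 and P2ry12, with a summed level of 2.81 to 3.17 FPKM in OGD/R and 0.79 to 1.08 FPKM in control libraries. The other 18, among them the defining markers Aif1, Itgam and Csf1r, are not analysed here, so the labelled cell type was not checked. Of markers of other cell types, 1 of 11 for fibroblasts and endothelium was in the table, Vwf, at 1.10 to 1.74 FPKM in OGD/R and 3.22 to 4.40 FPKM in control libraries. The neuronal marker Tubb3, 1 of 9 listed, was at 0 to 0.37 FPKM in OGD/R and 0.56 to 1.17 FPKM in control libraries, and Cspg4 of the oligodendrocyte lineage, 1 of 10, was at 0 to 0.03 FPKM in OGD/R and 0.08 to 0.09 FPKM in control libraries. None of the 8 astrocyte and 14 lymphocyte and granulocyte markers was in it. These few levels move with the groups, and their part in the results was not tested.

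Ccl7 had the highest level of the 3 genes in control cells and was lower after OGD/R. It measured 8.71, 9.58 and 13.98 FPKM in OGD/R libraries 1 to 3, against 33.22, 69.34 and 61.87 FPKM in control libraries 1 to 3. Every OGD/R library was below every control library, and the lowest control value was 2.38 times the highest OGD/R value. The group means were 10.8 ± 2.83 FPKM in OGD/R and 54.8 ± 19.1 FPKM in control (SD, n = 3 each), which is 5.10-fold lower in OGD/R. On log2(FPKM + 1) the fold change was -2.21 ± 0.31 (SE; 95% interval -2.95 to -1.47; limma, adjusted p = 0.00059). It was the 25th largest of 453 negative values on that scale, where the median of called falls was -1.04.

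The spread of Ccl7 lay largely in single libraries. Control library 1, with 204 counted units, had a counting interval of 28.8 to 38.1 FPKM, and control libraries 2 and 3, with 458 and 378 units, had 63.1 to 76.0 and 55.8 to 68.4 FPKM. The interval of control library 1 thus stayed apart from the other two, which overlapped each other. Among OGD/R libraries the counts were 56, 65 and 97 units, and the interval of library 3, 11.3 to 17.1 FPKM, overlapped that of library 2, 7.39 to 12.2 FPKM, while that of library 1, 6.58 to 11.3 FPKM, ended just below it. The coefficient of variation of Ccl7 was 26.3% in OGD/R, higher than that of 73.6% of the tested genes, and 34.8% in control, higher than that of 82.5%. Without control library 1 the fall was 6.10-fold, with a log2 fold change of -2.53.

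A low control library 1 and a high OGD/R library 3 were common in the table. Control library 1 was the lowest of the control libraries in 53.4% of the 852 tested genes and in 61.8% of the 432 called falls, and OGD/R library 3 was the highest of its group in 46.5% and 50.2%. Both held at once in 38.9% of the called falls, Ccl7 among them. Centring each library on the median of the tested genes gave Ccl7 a log2 fold change of -2.18 ± 0.26 (SE), and quantile normalisation gave -1.97 ± 0.24.

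Ccl9 was higher after OGD/R, with the least spread of the 3 genes. It measured 14.44, 15.44 and 15.08 FPKM in OGD/R libraries 1 to 3, against 5.10, 5.58 and 5.94 FPKM in control libraries 1 to 3. The groups did not overlap, and the lowest OGD/R value was 2.43 times the highest control value. The means were 14.99 ± 0.506 FPKM in OGD/R and 5.54 ± 0.421 FPKM in control (SD, n = 3 each), a ratio of 2.71. The log2 fold change was 1.29 ± 0.10 (SE; 95% interval 1.06 to 1.52; limma, adjusted p = 9.9e-05), the 91st largest of 399 positive values, where the median of called rises was 1.04. Its coefficient of variation was 3.38% in OGD/R and 7.61% in control, where the medians over the tested genes were 15.5% in OGD/R and 17.1% in control. The values rest on 353, 398 and 398 counted units in OGD/R and 119, 140 and 138 units in control libraries, and within each group all counting intervals overlapped, from 13.0 to 17.0 FPKM in OGD/R and from 4.22 to 7.02 FPKM in control.

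Cxcr4 was the least abundant of the 3 in both groups and was higher after OGD/R. It measured 3.93, 3.59 and 2.87 FPKM in OGD/R libraries 1 to 3, against 0.36, 1.34 and 0.65 FPKM in control libraries 1 to 3. The groups did not overlap, and the lowest OGD/R value was 2.14 times the highest control value. The means were 3.46 ± 0.541 FPKM in OGD/R and 0.783 ± 0.503 FPKM in control (SD, n = 3 each), a ratio of 4.42. The ratio was 6.86 without control library 2 and 3.48 without control library 1, so its size depends on single control libraries.

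The low level limits how well the size of the rise in Cxcr4 is known. The control values rest on 5, 20 and 9 counted units, with counting intervals of 0.117 to 0.840, 0.818 to 2.07 and 0.297 to 1.23 FPKM, and the OGD/R values on 57, 55 and 45 units. The coefficient of variation was 64.3% in control, higher than that of 96.4% of the tested genes, and 15.6% in OGD/R, close to the median of 15.5%. On log2(FPKM + 1) the fold change was 1.35 ± 0.22 (SE; 95% interval 0.83 to 1.88; limma, adjusted p = 0.0011), and a pseudocount of 0.1 in place of 1 gave 2.16 ± 0.42, since the added 1 is larger than the control mean. With limma-voom on the counted units it was 2.24 ± 0.42 (adjusted p = 0.0013). In bulk RNA, a change in the number of cells with Cxcr4 transcripts and a change in transcripts per cell cannot be told apart, which applies to Ccl7 and Ccl9 as well.

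**Figure D1:**
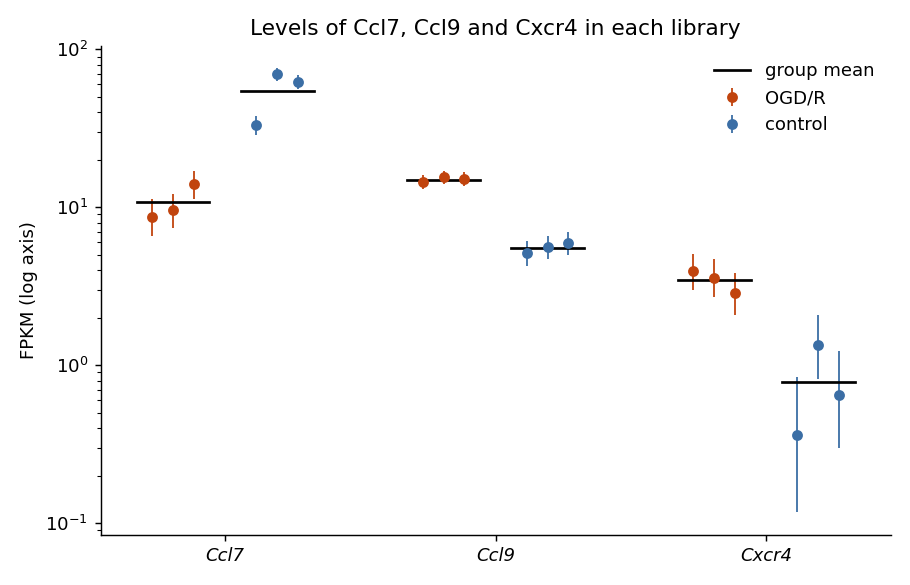
FPKM on a log axis of Ccl7, Ccl9 and Cxcr4 in each library, with OGD/R left of control for each gene; bars are exact 95% Poisson intervals of the counted units and black lines are group means. Ccl7 was lower in every OGD/R library, at 8.71 to 13.98 FPKM, and Ccl9 and Cxcr4 were higher in every OGD/R library, at 14.44 to 15.44 and 2.87 to 3.93 FPKM.

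The order of the 2 ligands differed between the groups. In OGD/R libraries the order by level was Ccl9, Ccl7 and Cxcr4, and in control libraries Ccl7, Ccl9 and Cxcr4; within each group the libraries' values of neighbouring genes did not overlap, though in OGD/R the highest Ccl7 value, 13.98 FPKM, came close to the lowest Ccl9 value, 14.44 FPKM. In OGD/R library 3 itself, Ccl7 was at 13.98 and Ccl9 at 15.08 FPKM, with overlapping counting intervals of 11.3 to 17.1 and 13.6 to 16.6 FPKM. Ccl9 made up 62.4%, 61.7% and 51.9% of the summed FPKM of the 2 ligands in OGD/R libraries 1 to 3, against 13.3%, 7.45% and 8.76% in control libraries 1 to 3. The mean share was 58.7% ± 5.87 in OGD/R and 9.84% ± 3.08 in control (SD, n = 3 each). The sum itself was 25.7 ± 3.02 FPKM in OGD/R and 60.35 ± 19.4 FPKM in control. These ratios restate the separate changes of 2 genes picked for a difference, and no test was made on them. The shares and sums also depend on the assigned lengths, 3045 nt of annotated exons for Ccl9 and 801 nt for Ccl7, whichever transcripts are expressed.

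**Figure D2:**
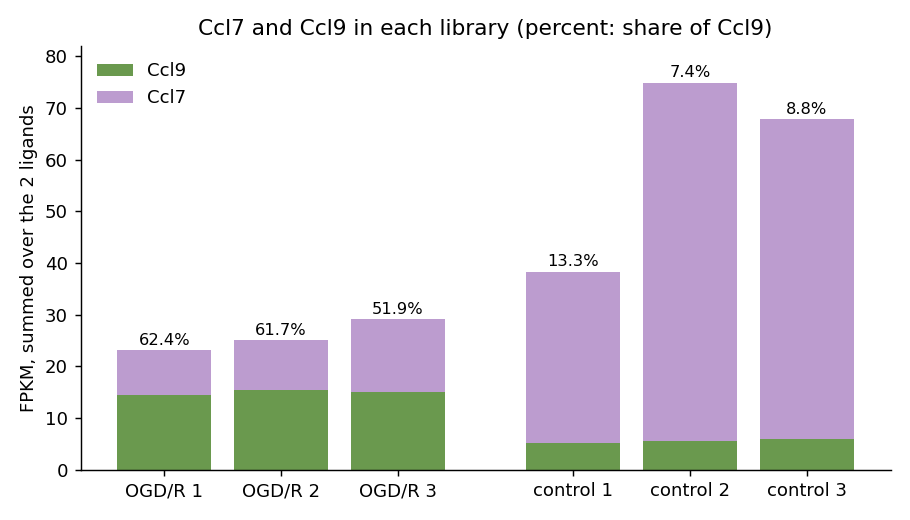
Summed FPKM of Ccl9 (lower part of each bar) and Ccl7 (upper part) in the OGD/R and control libraries, with the share of Ccl9 in percent above each bar. Ccl9 held 51.9% to 62.4% of the sum in OGD/R libraries and 7.45% to 13.3% in control libraries.

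Ccl7 and Ccl9 lie in different groups of the chemokine genes on mouse chromosome 11. On GRCm38, Ccl7 (ENSMUSG00000035373) spans chromosome 11 from 82045712 to 82047525 on the plus strand, beside Ccl2, Ccl11, Ccl12, Ccl8 and Ccl1. Ccl9 (ENSMUSG00000019122) spans chromosome 11 from 83572919 to 83578636 on the minus strand, in the group of Ccl5, Ccl6, Ccl3 and Ccl4. Of the 6 genes of the first group and the 5 of the second, 1 each is in the table, and the other 5 and 4 are not analysed here. Cxcr4 (ENSMUSG00000045382) lies on chromosome 1 from 128588199 to 128592293 on the minus strand. No other gene of GENCODE M21 overlaps any of the 3 on either strand.

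The nearest gene of the table beside Ccl9 was E230016K23Rik, a noncoding transcript gene 3.42 kb away on the opposite strand, named here for its position. It measured 7.74, 8.35 and 12.95 FPKM in OGD/R libraries 1 to 3, against 4.54, 4.48 and 3.45 FPKM in control libraries 1 to 3, with no overlap between the groups (log2 fold change 1.03; limma, adjusted p = 0.0028). Around Ccl7 and Cxcr4 the nearest genes of the table lay 931 and 549 kb away, Slfn9 and the pseudogene Rpl28-ps1.

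Promoters were looked up for all 3 genes, and those found, of Ccl9 and Cxcr4, are shown. Each sequence is the 250 bases before a transcription start in RefSeq on GRCm38.p6, printed 5′ to 3′ on the strand of the gene, which is minus for both. Capitals mark matches, on either strand, to TATAAA, the core promoter box, to GGGCGG, the GC box, and to GCGTG and ACGTG, cores of the hypoxia response element. They also mark TGANTCA, bound by AP-1, and the NF-kB consensus. Of the 3 genes, 2 had an entry in the table of promoters; Ccl7 had none.
Ccl9, chr11:83578637-83578886: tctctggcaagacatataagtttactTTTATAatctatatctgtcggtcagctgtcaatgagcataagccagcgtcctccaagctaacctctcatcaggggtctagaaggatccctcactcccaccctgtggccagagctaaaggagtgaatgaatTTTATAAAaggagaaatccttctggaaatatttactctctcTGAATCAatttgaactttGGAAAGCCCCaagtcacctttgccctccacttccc
Cxcr4, chr1:128592300-128592549: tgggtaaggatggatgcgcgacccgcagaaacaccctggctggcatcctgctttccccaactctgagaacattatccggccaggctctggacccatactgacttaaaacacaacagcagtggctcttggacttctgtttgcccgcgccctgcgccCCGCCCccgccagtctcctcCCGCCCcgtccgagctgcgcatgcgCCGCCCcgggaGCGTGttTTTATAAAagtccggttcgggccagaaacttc

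Both windows hold a TATAAA match, which 12.4% of the 32851 windows of this length in the table hold. In Cxcr4 it runs from -30 to -25 relative to the start and in Ccl9 from -92 to -87, each overlapped by a match on the other strand that begins 2 bases upstream. Ccl9 has a further match on the other strand, from -224 to -219. The window of Ccl9 also holds 1 AP-1 match, from -53 to -47, and 1 NF-kB match, from -35 to -26; 6.75% and 7.25% of all windows hold these. The window of Cxcr4 holds 3 GC box matches on the other strand and 1 GCGTG, from -39 to -35. At least 1 match on either strand is held by 32.7% of all windows for the GC box and 28.2% for GCGTG. The other shares given here count matches in the same way. ACGTG, present in 16.6% of windows, is in neither. The GC content was 43.6% for Ccl9 and 61.2% for Cxcr4, against a median of 52.4%. These are matches of letters, and binding was not measured.

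Among the 65 listed chemokine ligands and receptors, 6 are in the table, and all 6 passed the test, 5 higher and 1 lower in OGD/R, where 97.3% of all tested genes passed. Over all tested genes 46.6% rose and 50.7% fell. The median log2 fold change of the 6 was 0.92, beside -0.68 over all tested genes. In a table picked for a difference, such medians mostly restate how many genes rose and how many fell. The third ligand was Cxcl10, a ligand of Cxcr3 induced by interferon, at 1.88, 2.05 and 3.02 FPKM in OGD/R libraries 1 to 3, against 1.04, 1.13 and 1.22 FPKM in control libraries 1 to 3. Its groups did not overlap, and its log2 fold change was 0.62 ± 0.15 (SE; limma, adjusted p = 0.0067). Neither Cxcl12, the ligand of Cxcr4, nor Ccr1 and Ccr2, the receptors of the 2 ligands, is in the table, and they are not analysed here.

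The 2 other receptors were low as well. Cx3cr1, the fractalkine receptor of microglia, measured 1.99, 1.55 and 1.77 FPKM in OGD/R libraries 1 to 3, against 0.52, 0.22 and 0.38 FPKM in control libraries 1 to 3 (log2 fold change 1.01 ± 0.13 SE; limma, adjusted p = 0.00048). Ccrl2, an atypical receptor that binds chemerin, measured 1.44, 1.41 and 2.31 FPKM in OGD/R libraries 1 to 3, against 0.15, 0.75 and 0.76 FPKM in control libraries 1 to 3. It rose with a log2 fold change of 0.82 ± 0.22 (limma, adjusted p = 0.010), and its value in control library 1 rests on 3 counted units. The groups of either receptor did not overlap. The ratio of group means was 4.74 for Cx3cr1 and 3.11 for Ccrl2, and a pseudocount of 0.1 gave log2 fold changes of 2.03 and 1.65, since these levels too are near or below the added 1 FPKM. Cxcr4 had a larger log2 fold change than Cx3cr1 with a pseudocount of 1, while the ratio of its group means, 4.42, was the smaller of the 2. By group mean Cxcr4 was the most abundant of the 3 receptors in OGD/R and in control, although in control library 1 it was below Cx3cr1 and in control library 3 below Ccrl2.

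**Figure D3:**
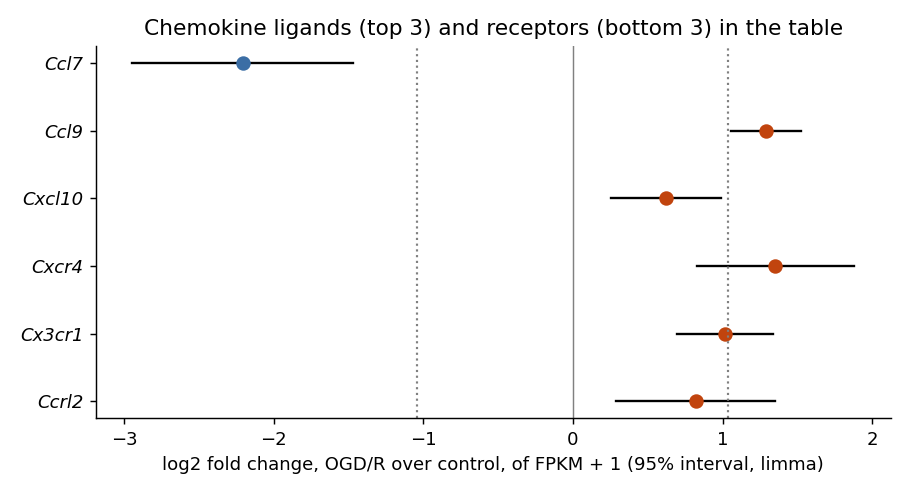
Log2 fold change, OGD/R over control, of FPKM + 1 with 95% limma intervals for the 3 ligands and 3 receptors in the table; dotted lines mark the medians of called rises, 1.04, and called falls, -1.04. Ccl7 alone of the 6 lies left of 0, at -2.21, and the other 5 lie right of it, at 0.62 to 1.35.

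Of 52 listed genes of receptor signalling and turnover, 6 were in the table and 5 were tested, of which 1 rose, 3 fell and 1 did not pass, where 46.6% of all tested genes rose and 50.7% fell. Itch, a ubiquitin ligase that sends Cxcr4 to the lysosome, was at 31.6 ± 2.92 FPKM in OGD/R and 14.4 ± 1.87 FPKM in control (SD, n = 3 each; log2 fold change 1.09; limma, adjusted p = 0.00031). Rgs2, a regulator that shortens G protein signals, was at 8.11 ± 1.24 FPKM in OGD/R and 36.7 ± 6.68 FPKM in control, with a log2 fold change of -2.04. Mmp12, a macrophage metalloproteinase that cleaves chemokines, and Rgs3 were lower too, at log2 fold changes of -1.04 and -0.60. Mmp9, the untested gene of the list, went the other way, at 0.93 to 1.34 FPKM in OGD/R and 0.37 to 0.59 FPKM in control. Its groups did not overlap, as in 94.9% of the table, and it was named after its values were seen. Rgs1, which restrains chemokine receptor signals in leukocytes and was named after its values were seen, did not pass, and its groups overlapped, at 3.44, 2.81 and 6.30 FPKM in OGD/R libraries 1 to 3 and 3.74, 11.33 and 11.44 FPKM in control libraries 1 to 3 (limma, adjusted p = 0.095).

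The tested NF-kB regulators, cytokines and inflammatory enzymes fell except for Il1a, in a table where 46.6% of tested genes rose and 50.7% fell. Of 24 listed NF-kB regulators 2 were tested and both fell, Nfkbiz, at 3.17 ± 0.702 FPKM in OGD/R and 6.91 ± 1.44 FPKM in control (SD, n = 3 each), and Relb, at 2.05 ± 0.295 FPKM in OGD/R and 4.10 ± 0.430 FPKM in control. Of 25 inflammatory cytokines and enzymes 11 were in the table and 6 were tested, of which 1 rose and 5 fell, with a median log2 fold change of -1.20. Tnfsf9, the ligand of the costimulatory receptor 4-1BB, was lowest among controls in library 1 and highest among OGD/R libraries in library 3, as Ccl7 was, at 12.05, 11.71 and 19.14 FPKM in OGD/R libraries 1 to 3, against 26.51, 44.07 and 47.01 FPKM in control libraries 1 to 3. Log2 fold changes were -2.34 for Lcn2, -1.55 for Ptgs2 and -1.02 for Csf1, all lower, and the exception was the cytokine Il1a, named after its values were seen, at 2.78, 2.99 and 1.87 FPKM in OGD/R libraries 1 to 3, against 0.79, 1.04 and 0.80 FPKM in control libraries 1 to 3 (log2 fold change 0.91). Il6, Il23a, Il1b, Lif and Saa3 were under the mean of 1 FPKM and were not tested. Of these, the cytokines Il1b, at 0.39 to 0.93 FPKM in OGD/R and 0 to 0.28 FPKM in control, and Lif, at 0.16 to 0.45 FPKM in OGD/R and 0 to 0.06 FPKM in control, had the higher values in OGD/R with no overlap between the groups. Il6 was lower in OGD/R, at 0.10 to 0.34 FPKM against 0.97 to 1.57 FPKM in control, also with no overlap. So was Il23a, at 0.17 to 0.36 FPKM in OGD/R and 0.88 to 1.19 FPKM in control. The groups of Saa3 overlapped, at 0.23 to 1.06 FPKM in OGD/R and 0.80 to 1.68 FPKM in control. No overlap was the rule in the table, at 94.9% of genes, and these untested genes were named after their values were seen.

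Few genes of the remaining lists were in the table. Of 22 genes of the hypoxia response 3 were tested and all 3 fell, Ndrg1, at 19.0 ± 0.454 FPKM in OGD/R and 65.05 ± 1.82 FPKM in control (SD, n = 3 each), Slc2a1, the glucose transporter, at 33.4 ± 2.76 FPKM in OGD/R and 72.1 ± 16.5 FPKM in control, and Aldoa, whose name is shared by an adjacent annotated locus, so its value is uncertain. Of the list of genes responsive to FOXO factors, KLF factors or glucocorticoids, Txnip and Klf10 rose (log2 fold changes 2.73 and 1.86). Over all tested genes 46.6% rose and 50.7% fell.

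Each of the 3 genes was set beside the 635 other named tested genes by the root mean square difference of centred log2(FPKM + 1) over the 6 libraries, where 0 is an identical profile. Nearest to Ccl7 were Manf, Nox3 and Gadd45a, with differences of 0.15, 0.17 and 0.17, where the median over all genes compared was 0.97. Manf had 17.85, 17.86 and 21.16 FPKM in OGD/R libraries 1 to 3, against 62.82, 106.3 and 117.1 FPKM in control libraries 1 to 3. Gadd45a had 2.75, 2.28 and 5.89 FPKM in OGD/R libraries 1 to 3, against 10.94, 24.82 and 22.67 FPKM in control libraries 1 to 3. Both were lowest among controls in library 1 and highest among OGD/R libraries in library 3, as Ccl7 was. Picking genes by nearness over these same 6 libraries favours such a shared order.

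Nearest to Ccl9 were Kif23, Kif20b and Ckap2l, with differences of 0.037, 0.049 and 0.050 and a median of 0.94 over all genes. Kif23 had 16.04, 16.88 and 16.53 FPKM in OGD/R libraries 1 to 3, against 5.40, 6.09 and 6.92 FPKM in control libraries 1 to 3. Nearest to Cxcr4 were Depdc1a, Marcksl1 and Esco2, with differences of 0.15, 0.16 and 0.17 and a median of 0.99 over all genes. Depdc1a had 11.54, 11.44 and 11.67 FPKM in OGD/R libraries 1 to 3, against 2.79, 5.15 and 4.46 FPKM in control libraries 1 to 3. With 2 groups that stand apart in nearly all genes, nearness mostly reflects the direction and size of the group difference.

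**Figure D4:**
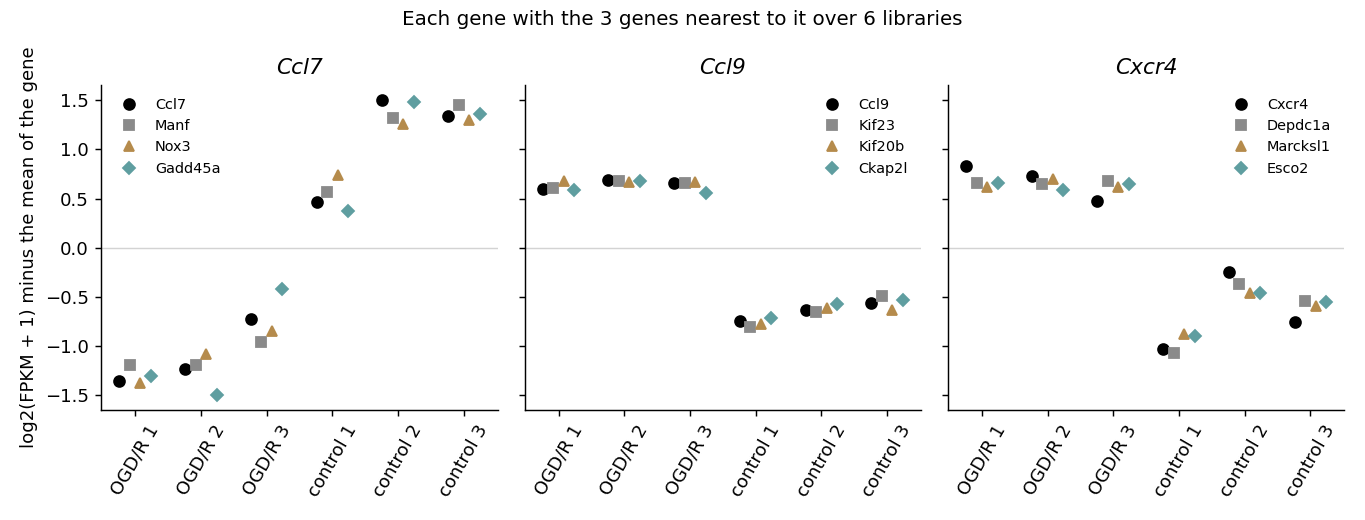
Log2(FPKM + 1) minus the mean of the gene in each OGD/R and control library for Ccl7, Ccl9 and Cxcr4 (circles) and the 3 genes nearest to each. Ccl7, Manf, Nox3 and Gadd45a are lowest among controls in library 1, and Ccl9, with Kif23 at a difference of 0.037, varies little within groups.

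In a table picked for a group difference, where 97.3% of tested genes were called, a kept direction and call says little about single genes. The 3 genes kept both under the alternatives that gave a value, while the size of the change in Cxcr4 varied. Its log2 fold change was 1.18 without control library 1 and 2.32 with a pseudocount of 0.01. Leaving out 1 library at a time gave Ccl7 -2.53 (without control library 1) to -2.01, and quantile normalisation gave -1.97.

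**Figure D5:**
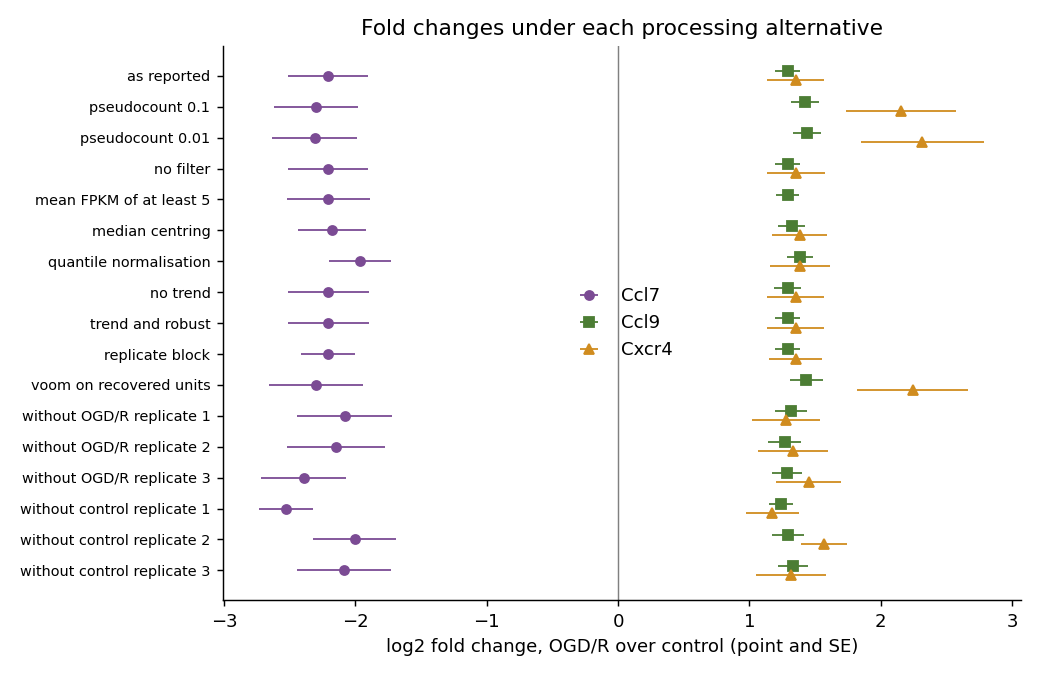
Log2 fold change with SE of Ccl7, Ccl9 and Cxcr4 as reported and under each processing alternative; Cxcr4 is missing where a mean of at least 5 FPKM was required. Ccl7 stays between -2.53 and -1.97 and Ccl9 between 1.24 and 1.44, while Cxcr4 ranges from 1.18 to 2.32.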

How the data were processed

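RNA from 3 OGD/R and 3 control samples was sequenced from 1 ug each as paired reads of 150 nt, per the labels' protocols. The deposited values are FPKM computed by the authors and printed to 2 decimals, for 1228 genes in 1 table. Per the submitters' processing notes the build is GRCm38. The sources used here name no aligner, counting tool, annotation, strand setting or selection rule for the genes. The members and gene lists were chosen with earlier results of these data known.

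Gene IDs were matched to GENCODE M21, which placed 1227 of 1228, and 2 names that were dates were restored. Counted units were recovered as the library size at which values under 15 units were whole within rounding error plus 0.03 units. At that size, with GENCODE exon lengths, 96.8% to 99.5% of values were whole. The best other size searched gave 40.7% to 49.6%, in a range that left out multiples of the chosen size, which also give whole values. Units may be reads or read pairs. The main test was limma 3.58.1 in R 4.3.3 on log2(FPKM + 1) with an eBayes trend, two-sided, for genes with a mean of at least 1 FPKM, with Benjamini-Hochberg adjustment over 852 genes. The scale understates changes of low genes. The fits were also run on simulated data in which most genes were unchanged. This table differs from that, so those runs do not bear on the p-values given here. By rule, named genes are the 3 genes, the 3 profiles nearest to each, and every listed chemokine ligand or receptor in the table. The rule also takes up to 4 called genes of each other list with the largest change and the most abundant marker of each other cell type. Outside the rule, Rgs1, Il1a, Mmp9, Il1b, Lif, Il6, Il23a and Saa3 were named after their values were seen. Neighbours on the chromosome were named for their position. Summaries and figures were made in Python 3.11.15 (numpy 2.4.6, pandas 2.3.3, scipy 1.17.1, matplotlib 3.10.9). Alternatives covered the pseudocount, the filter, scaling, eBayes settings, a replicate block, limma-voom on the counted units and each library left out. One gene that this rule names is not reported here.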

Additional observations from a re-analysis of the deposited data

How the results depend on the processing

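Ccl7, Ccl9 and Cxcr4 kept direction and call in every alternative that gave a value, 16 for each ligand and 15 for Cxcr4, which a filter of at least 5 FPKM removed. Their log2 fold changes ranged from -2.53 to -1.97 for Ccl7, from 1.24 to 1.44 for Ccl9 and from 1.18 to 2.32 for Cxcr4, with limma adjusted p of at most 0.0034, 0.0012 and 0.0056. Leaving out 1 library at a time gave -2.53 to -2.01, 1.24 to 1.33 and 1.18 to 1.57. All 6 chemokine genes were called in every alternative but that filter, which left 2 because fewer genes were tested. That is the rule in this table, which as reported had 829 calls among 852 tested genes (97.3%). It had 1179 calls among 1228 genes with no filter and 789 to 829 among 852 without any 1 library. The filter of at least 5 FPKM gave 409 calls, where fewer genes were tested. With the replicate number as a block the log2 fold changes were -2.21, 1.29 and 1.35 and the adjusted p in limma 0.00099, 0.00093 and 0.0026. Libraries that share a number had correlations of their deviations of 0.428, -0.349 and 0.375. With 3 libraries per group these values cannot tell whether the numbers pair the libraries. Depth limits Cxcr4, with 5 to 20 counted units per control library, and likewise Cx3cr1, with 8 to 18, and Ccrl2, with 3 to 16.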
